A study of Sus scrofa with 12 samples.

Results

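Axon guidance genes encode secreted and membrane-bound cues, with their receptors, that attract or repel growing nerve fibres and moving cells. The genes described here were every gene on the array whose symbol begins with SEMA, PLXN, ROBO, EPHA, EPHB, EFNA, EFNB, NTN, UNC5 or FLRT, or with SLIT or CNTN and a number, together with NRP1. They made up 63 genes of the 12362 that the array annotation names by 1 symbol, measured by 69 probe sets, and where a gene had several probe sets the highest in mean signal was used. The signal of 54 of the 63 genes was high enough for the tests, and the other 9 were dim. RNA came from the left ventricle of female pigs aged 13 months, measured on 12 arrays in 4 groups of 3. In paced pigs (EXP), atrioventricular block was made with an ablation catheter, which cuts the electrical link from atrium to ventricle, and a pacemaker in VDD mode, whose ventricular beats follow the sensed atrium, was implanted. Control pigs (CTL) were a sham group. According to the labels all pigs, controls included, had a ventricular lead on the right ventricular septum and an atrial lead on the right atrial appendage; whether the leads of control pigs were connected or active is not given in the sources used here. The pigs were killed 6 months after surgery, and tissue of the left ventricular free wall and of the septum was taken, giving 4 groups, control and paced for each region. The labels give 12 pigs, 6 per treatment, and do not say which array came from which pig or whether an array holds 1 pig, so p-values measure only the spread between these arrays.

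SLIT proteins are secreted and bind ROBO receptors, and in the nervous system the contact makes a growth cone turn away. Semaphorins signal through plexins, and the secreted class 3 members mostly need a neuropilin as co-receptor; in the heart, SEMA3A is known for repelling sympathetic nerve fibres, and SEMA3C with PLXND1 and neuropilins for the division of the outflow tract. Ephrins are bound to the cell surface and activate Eph receptors on the neighbouring cell, and EFNB2 and EPHB4 separate arteries from veins. Netrins act through DCC and the UNC5 receptors, FLRT proteins are adhesion molecules that also bind UNC5 receptors, and contactins are cell surface adhesion molecules of nerve cells.

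Signals are log2 values after robust multi-array averaging (RMA), and a log2 difference of 1 is a doubling of the signal. Array medians lay between 4.305 and 4.45, and the 25th percentiles between 2.91 and 3.13. Paced free wall array 2 stood apart on the first principal component, at -45.3 against -19.2 to 22.3 in the other arrays, and was the highest of the 12 arrays for 12 of the 54 genes (22.2%, against 18.2% of all probe sets tested). Control arrays 1 of both regions stood apart on the second component, at 27.2 and 24.3, and control free wall array 1 was the lowest of the 12 for 10 of the 54 genes (18.5%, against 7.65%). Heart muscle markers matched the labelled tissue: 9 of 15 were on the array, with a group mean between 10.74 and 10.84. Among them NPPB was low, at 3.87 over the 12 arrays, where the others lay between 10.62 and 12.52. Of 24 nerve and Schwann cell markers 12 were on the array and 9 were tested, and their mean was 4.57 to 4.64 in the groups. That mean was raised by NCAM1, at 9.07 over the 12 arrays, where the other tested markers lay between 3.22 and 4.66. None of the marker genes passed in any comparison. The median standard deviation (SD) within groups was 0.22 for the 54 genes and 0.2 for all probe sets tested.

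**Figure D1:**
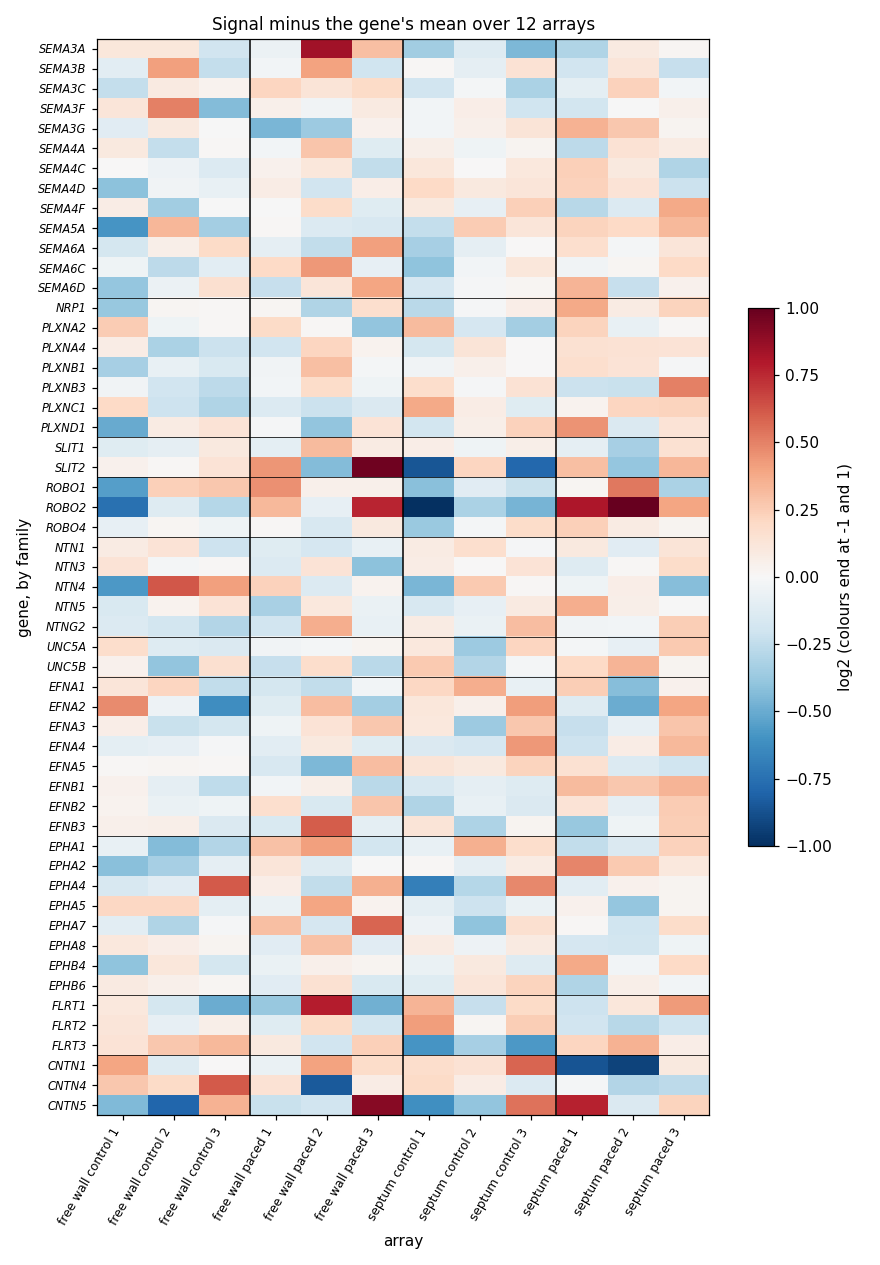
Signal of the 54 tested genes (rows, by family) in each of the 12 arrays (columns), shown as log2 difference from the gene's own mean over the 12 arrays; colours end at -1 and 1. ROBO2 is blue in the 6 control arrays, most of all in both arrays numbered 1, and red in 5 of the 6 paced arrays.

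Paced pigs were first compared with control pigs, in each region. No guidance gene passed in any pacing comparison. At an unadjusted p under 0.05, ROBO2, EPHA1 and PLXNB1 were higher and CNTN4 lower in the paced free wall, and ROBO2, FLRT3 and EFNB1 were higher and CNTN1 and FLRT2 lower in the paced septum. In the free wall 0 of 54 genes had a limma adjusted p under 0.05, where 0.00484% of the 20669 probe sets tested did, and 4 had an unadjusted p under 0.05 (7.41%, against 4.56% of all). In the septum 0 of 54 passed (0.00968% of all), 5 had an unadjusted p under 0.05 (9.26%, against 4.66%), and the groups did not overlap for 8 genes (14.8%, against 10.5%). Free wall groups did not overlap for 4 genes (7.41%, against 8.16%). The smallest adjusted p among the genes was 0.998 in the free wall and 0.701 in the septum.

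The direction of the differences was counted over the same 54 genes. Above 0 were 36 of 54 log2 differences in the free wall (66.7%, against 49.9% of all probe sets) and 32 in the septum (59.3%, against 49.1%). The medians were 0.06 in each region, where the medians of all probe sets were 0 and -0.003. Without paced free wall array 2, 30 of 54 free wall differences were above 0 (55.6%, against 47.5%). The septum count was 28 (51.9%, against 49.1%) without control septum array 2. Without paced septum array 1 it was 36 (66.7%, against 49.4%). Leaving out array 1 of the control free wall left 2 genes at an unadjusted p under 0.05 (against 3.81% of all). Leaving out array 3 of that group also left 2 (against 4.63%). Without paced free wall array 3 there were 6 (against 5.59% of all). With only the free wall arrays in the fit 1 gene was at that p (against 3.36% of all).

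**Figure D2:**
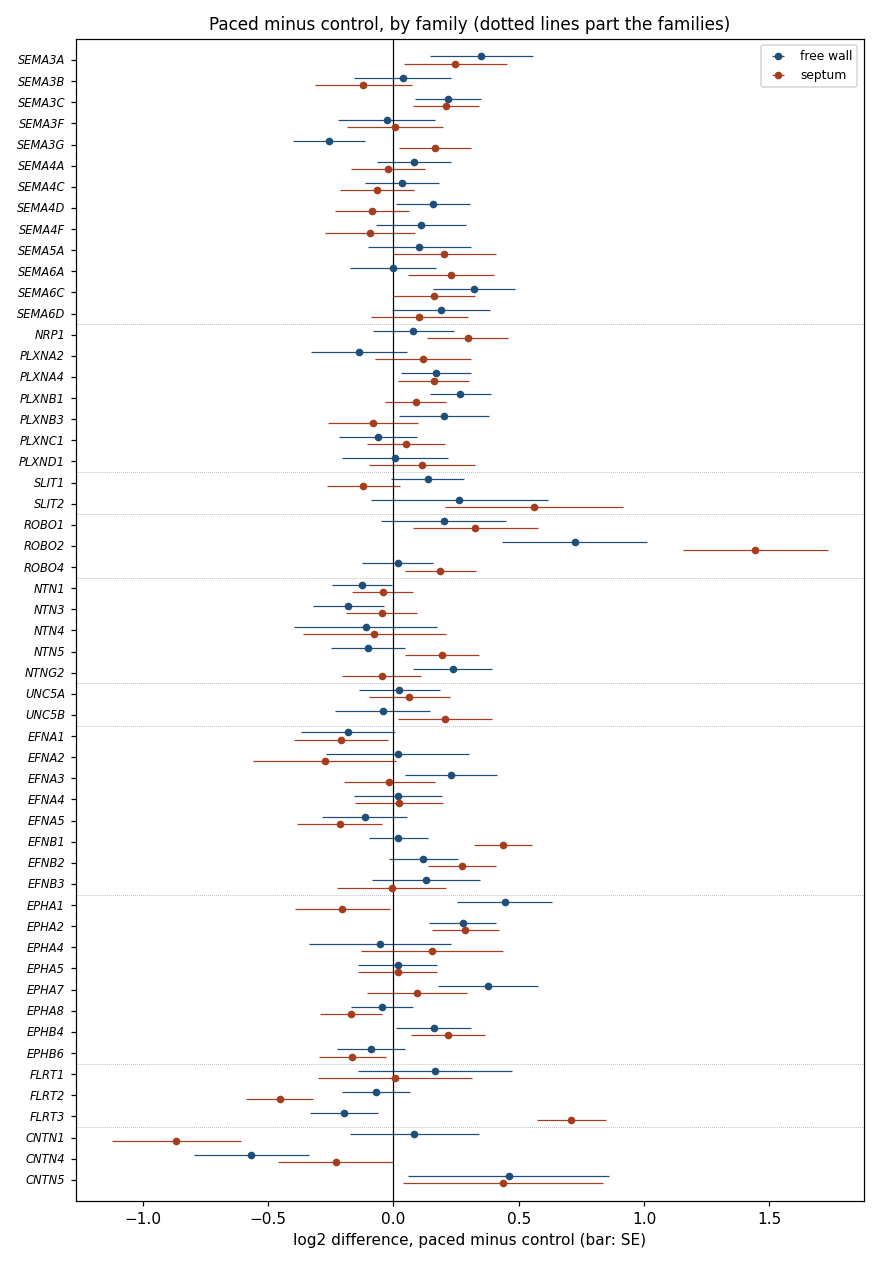
Log2 difference, paced minus control, for each of the 54 genes by family, in the free wall and in the septum; bars are the standard error of the limma fit (3 arrays per group). ROBO2 lies farthest to the right in both regions, at 0.72 and 1.44, and CNTN1 in the septum farthest to the left, at -0.87.

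ROBO2, a receptor of SLIT proteins, read 3.28, 3.90 and 3.74 in the control free wall arrays and 4.35, 3.95 and 4.79 in the paced free wall arrays. In the septum it read 2.73, 3.71 and 3.56 in controls and 4.84, 5.07 and 4.42 in paced arrays. The 2.73 of control septum array 1 lay below the 25th percentile of that array (2.99). Each paced array was above each control array of its region, though paced free wall array 2 exceeded control free wall array 2 by little. The log2 difference was 0.72 in the free wall (SE 0.29, n = 3 per group, limma adjusted p = 0.998) and 1.44 in the septum (SE 0.29, 2.72-fold, adjusted p = 0.701). In whole tissue, more cells of a type and more RNA per cell cannot be told apart. The difference between the pacing effects of the regions was 0.72 (SE 0.41, adjusted p = 0.999).

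Both control arrays numbered 1 were the lowest for ROBO2 in their regions, and without them the differences were 0.54 in the free wall and 1.14 in the septum. Those arrays were also the lowest for the fibroblast markers. The mean of these markers, of which 10 of 11 were on the array and tested, was 6.84 in control free wall array 1 and 6.86 in control septum array 1, against 7.21 to 7.75 in the other arrays. Group means of the list were 7.42 in control free wall, 7.66 in paced free wall, 7.27 in control septum and 7.6 in paced septum arrays. For pacing, 8 of 10 markers were above 0 in the free wall (against 49.9% of all probe sets) and 9 of 10 in the septum (against 49.1%). Their part in the ROBO2 result was not tested.

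A second ROBO2 probe set was too dim for the tests, and the array annotation lists the one used under a pair of gene identifiers that both carry the symbol ROBO2. The dim probe set read 1.63, 1.83 and 1.73 in control free wall and 2.43, 1.60 and 2.11 in paced free wall arrays, which overlapped. In the septum it read 1.33, 1.66 and 1.45 in control arrays and 2.43, 2.15 and 1.89 in the paced, which did not overlap. Fitted without the filter on dim probe sets, its log2 difference was 0.32 in the free wall (SE 0.2) and 0.68 in the septum (SE 0.2, limma adjusted p = 0.997).

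The remaining SLIT and ROBO genes had smaller differences or wider spread. SLIT2, the ligand, read 5.07, 5.04 and 5.16 in control free wall arrays and 5.47, 4.59 and 6.00 in paced free wall arrays. In the septum SLIT2 read 4.17, 5.24 and 4.24 in controls and 5.33, 4.64 and 5.36 in paced arrays. The SLIT2 groups overlapped in both regions, and its SD within groups, 0.51, was the second highest of the 54 genes; its log2 differences were 0.26 (SE 0.35) and 0.56 (SE 0.35). ROBO1, the neighbour of ROBO2 in the order of genes on the chromosome in RefSeq's Sscrofa11.1 assembly, read 4.26, 5.05 and 5.08 in control free wall, 5.27, 4.86 and 4.86 in paced free wall, 4.39, 4.70 and 4.59 in control septum and 4.83, 5.34 and 4.49 in paced septum arrays. Its groups overlapped in both regions (log2 0.20, SE 0.25, and 0.33, SE 0.25). ROBO4, the member of the family found on blood vessel endothelium, averaged 5.13 ± 0.05 (SD, n = 3) in control free wall, 5.14 ± 0.13 in paced free wall, 5.09 ± 0.28 in control septum and 5.28 ± 0.11 in paced septum arrays. SLIT1 differed by 0.14 (SE 0.15) in the free wall and -0.12 (SE 0.15) in the septum.

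**Figure D3:**
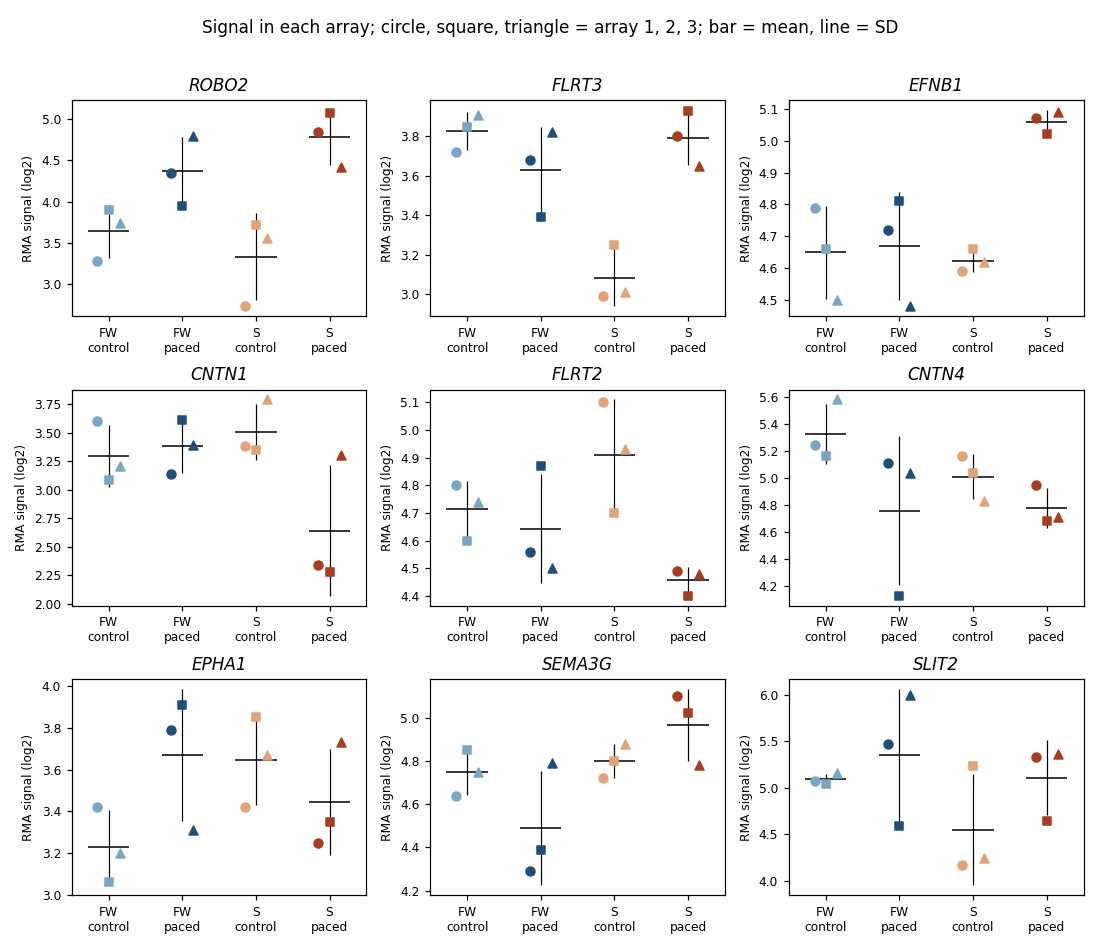
RMA log2 signal of 9 genes in each array, with the group mean (bar) and SD (line); FW is free wall, S is septum, and circle, square and triangle are arrays 1, 2 and 3 of a group. In the septum ROBO2, FLRT3 and EFNB1 have all paced arrays above all control arrays, and CNTN1 and FLRT2 have all paced arrays below.

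FLRT3, an adhesion molecule that binds UNC5 receptors and latrophilins, read 2.99, 3.25 and 3.01 in control septum and 3.80, 3.93 and 3.65 in paced septum arrays. Free wall signals of FLRT3 were 3.72, 3.85 and 3.91 in control arrays and 3.68, 3.39 and 3.82 in the paced. The control septum arrays were the 3 lowest of the 12, and the other 9 arrays lay between 3.39 and 3.93. The 25th percentiles of the control septum arrays were 2.99, 2.98 and 3.04, so FLRT3 was near the dim end there. The log2 difference with pacing was 0.71 in the septum (SE 0.14, 1.64-fold, limma adjusted p = 0.701) and -0.20 in the free wall (SE 0.14), and the difference between these effects was 0.91 (SE 0.19, adjusted p = 0.999).

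FLRT2, a relative of FLRT3 that also binds UNC5 receptors, lay the other way in the septum. It read 5.10, 4.70 and 4.93 in control septum and 4.49, 4.40 and 4.48 in paced septum arrays, which did not overlap (log2 -0.45, SE 0.13, adjusted p = 0.953). FLRT2 in the free wall read 4.80, 4.60 and 4.74 in control arrays and 4.56, 4.87 and 4.50 in the paced, which overlapped (log2 -0.07, SE 0.13). FLRT1 differed by 0.17 (SE 0.31) in the free wall and by 0.01 (SE 0.31) in the septum.

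Among the ephrins, the ligands of Eph receptors, EFNB1 had the smallest spread within groups of the 54 genes (SD 0.11). EFNB1 read 4.59, 4.66 and 4.62 in control septum and 5.07, 5.02 and 5.09 in paced septum arrays. Its free wall signals were 4.79, 4.66 and 4.50 in control arrays and 4.72, 4.81 and 4.48 in the paced. The paced septum arrays were the 3 highest of the 12, and the log2 difference was 0.44 in the septum (SE 0.12, 1.35-fold, limma adjusted p = 0.943) and 0.02 in the free wall (SE 0.12). The difference between these effects was 0.42 (SE 0.16, adjusted p = 0.999). EFNB2, the ligand of arterial endothelium, averaged 5.17 ± 0.05 (SD, n = 3) in control free wall, 5.29 ± 0.22 in paced free wall, 5.02 ± 0.12 in control septum and 5.29 ± 0.18 in paced septum arrays, with overlapping groups. Of the 8 ephrins, 6 were above 0 with pacing in the free wall and 3 in the septum, with medians of 0.02 and -0.01. EFNA1 differed by -0.18 (SE 0.19) and -0.21 (SE 0.19).

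Among the Eph receptors, EPHA1 had an unadjusted p under 0.05 in the free wall. EPHA1 read 3.42, 3.06 and 3.20 in control free wall and 3.79, 3.91 and 3.31 in paced free wall arrays, which overlapped by the lowest paced and the highest control array (log2 0.44, SE 0.19, limma adjusted p = 0.998). Without paced free wall array 2, the highest, the EPHA1 difference was 0.32, and without array 3, the lowest of the paced, it was 0.62. In the septum EPHA1 read 3.42, 3.85 and 3.67 in control arrays and 3.25, 3.35 and 3.73 in the paced (log2 -0.20, SE 0.19). The difference between these effects was -0.65 (SE 0.27, adjusted p = 0.999). EPHA2, a receptor of ephrin-A ligands on epithelium and vessels, read 3.26, 3.35 and 3.59 in control free wall and 3.80, 3.55 and 3.68 in paced free wall arrays. In the septum EPHA2 read 3.69, 3.59 and 3.76 in control arrays and 4.17, 3.94 and 3.79 in the paced. Groups overlapped in the free wall and not in the septum, and the log2 differences were alike in size, at 0.28 (SE 0.13) and 0.29 (SE 0.13). EPHB4, the partner of EFNB2 on veins, differed by 0.16 (SE 0.15) and 0.22 (SE 0.15), and EPHA4 by -0.05 (SE 0.28) and 0.15 (SE 0.28).

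No semaphorin had an unadjusted p under 0.05 with pacing in either region alone. Of the 13 tested, 10 were above 0 in the free wall and 8 in the septum, each with a median of 0.10. SEMA3C, a secreted ligand of the outflow tract, read 9.03, 9.36 and 9.30 in control free wall and 9.48, 9.40 and 9.46 in paced free wall arrays, which did not overlap (log2 0.22, SE 0.13). In the septum SEMA3C read 9.08, 9.25 and 8.95 in control arrays and 9.17, 9.50 and 9.24 in the paced, which overlapped (log2 0.21, SE 0.13). SEMA3A, the repellent of sympathetic fibres, read 3.30, 3.30 and 3 in control free wall and 3.13, 4.03 and 3.49 in paced free wall arrays, and the highest of these was the array that stood apart. In the septum SEMA3A read 2.84, 3.06 and 2.74 in control arrays and 2.89, 3.28 and 3.21 in the paced. The SEMA3A differences were 0.35 (SE 0.21) and 0.25 (SE 0.21), with overlap in both regions. SEMA3G, a class 3 member of vessels, differed by -0.26 (SE 0.14) in the free wall and 0.17 (SE 0.14) in the septum. SEMA4D, a membrane-bound ligand of PLXNB1, differed by 0.16 (SE 0.15) and -0.09 (SE 0.15), and SEMA6A by 0.00 (SE 0.17) and 0.23 (SE 0.17).

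Among the receptors of semaphorins, PLXNB1 read 5.94, 6.20 and 6.12 in control free wall and 6.24, 6.57 and 6.25 in paced free wall arrays. The groups did not overlap, with a narrow gap (log2 0.27, SE 0.12, limma adjusted p = 0.998), and without paced free wall array 2, the highest, the difference was 0.16. In the septum PLXNB1 read 6.24, 6.32 and 6.28 in control arrays and 6.44, 6.41 and 6.26 in the paced (log2 0.09, SE 0.12). NRP1, the co-receptor of class 3 semaphorins and of VEGF, read 7.77, 8.03 and 8.11 in control septum and 8.42, 8.12 and 8.26 in paced septum arrays, which did not overlap by a narrow margin (log2 0.30, SE 0.16). NRP1 in the free wall read 7.66, 8.06 and 8.05 in control arrays and 8.06, 7.74 and 8.21 in the paced (log2 0.08, SE 0.16). PLXND1, a receptor of vessels, differed by 0.01 (SE 0.21) and 0.11 (SE 0.21), and PLXNA2 by -0.14 (SE 0.19) and 0.12 (SE 0.19). For NRP1 and PLXND1 the lowest array of all was control free wall array 1. The mean of 9 vascular endothelial markers, of 13 listed, was low in the same array, at 5.909, and in paced free wall array 2, at 5.887, against 6.04 to 6.48 in the others. Group means of that list were 6.12, 6.11, 6.22 and 6.31 in control free wall, paced free wall, control septum and paced septum arrays, 4 and 5 of the 9 were above 0 for pacing in the free wall and the septum, and its part in the values of NRP1 and PLXND1 was not tested.

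Netrins and their receptors had no gene at an unadjusted p under 0.05 for pacing in either region. Of 5 netrins 4 were below 0 in the free wall and 4 in the septum, with medians of -0.11 and -0.05. NTN1, the secreted cue of the midline, averaged 4.11 ± 0.18 (SD, n = 3) in control free wall, 3.98 ± 0.05 in paced free wall, 4.18 ± 0.09 in control septum and 4.14 ± 0.13 in paced septum arrays. NTN4, a netrin of basement membranes, read 4.76, 5.96 and 5.75 in control free wall and 5.57, 5.20 and 5.37 in paced free wall arrays, and 4.88, 5.60 and 5.35 in control septum and 5.29, 5.40 and 4.91 in paced septum arrays. Both control arrays numbered 1 were the lowest of the 12 for NTN4. UNC5B, a netrin receptor of endothelium, differed by -0.04 (SE 0.19) and 0.21 (SE 0.19).

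Contactins, the adhesion molecules of nerve cells, included the largest negative differences. CNTN1 read 3.38, 3.35 and 3.79 in control septum and 2.34, 2.28 and 3.30 in paced septum arrays. In the free wall it read 3.60, 3.08 and 3.21 in control arrays and 3.14, 3.61 and 3.39 in the paced. The septum groups did not overlap, but paced septum array 3 lay just under the lowest control, and paced septum arrays 1 and 2 lay below the 25th percentile of their arrays (2.91). The log2 difference was -0.87 in the septum (SE 0.26, limma adjusted p = 0.953) and 0.08 in the free wall (SE 0.26), and the difference between these effects was -0.95 (SE 0.36, adjusted p = 0.999). A second, dim CNTN1 probe set differed by -0.09 in the septum in the fit without a filter, and the mean of both probe sets gave -0.48 in the septum and -0.43 for the difference between the effects. CNTN4 read 5.24, 5.16 and 5.58 in control free wall and 5.11, 4.13 and 5.04 in paced free wall arrays. These groups did not overlap (log2 -0.57, SE 0.23, adjusted p = 0.998), and without paced free wall array 2, the lowest, the difference was -0.25. In the septum CNTN4 read 5.16, 5.04 and 4.83 in control arrays and 4.95, 4.68 and 4.71 in the paced (log2 -0.23, SE 0.23). CNTN5 had the widest spread within groups of all 54 genes (SD 0.58) and differed by 0.46 (SE 0.40) and 0.44 (SE 0.40).

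The pacing difference in the septum was also compared with that in the free wall, gene by gene. For this difference of effects 0 of 54 genes passed (0% of all probe sets), and 4 had an unadjusted limma p under 0.05 (7.41%, against 2.75%). These were FLRT3 and EFNB1, with the larger effect in the septum, and CNTN1 and EPHA1, with the lower one. Leaving out control free wall array 2 or paced free wall array 2 left 2 genes at that p (against 2.06% and 3% of all). So did leaving out array 3 of the control septum or array 1 or 2 of the paced septum (against 1.89% to 2.88%). The number was 6 without array 3 of the paced free wall (against 4.03% of all) or of the paced septum (against 4.86%). Of the 54 differences 26 were above 0 (48.1%, against 51.3%).

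To compare the treatments over both regions, same-numbered free wall and septum arrays of a treatment were averaged, giving 3 control and 3 paced values. The labels do not tie same-numbered arrays to 1 pig, and in paced pigs their deviations did not go together, so the spread of these values rests on that numbering. ROBO2 averaged 3.49 ± 0.42 (SD, n = 3) in control and 4.57 ± 0.05 in paced values, where the SDs within the regions were 0.42 and 0.33 for paced arrays, a log2 difference of 1.08 (SE 0.19, 2.12-fold, limma adjusted p = 0.361), and 0.84 without control number 1. In all 0 of 54 genes passed (0.00484% of all), 8 had an unadjusted p under 0.05 (14.8%, against 5.55%), and 11 had groups that did not overlap (20.4%, against 10.5%). The number at that p was 3 without control number 1 (against 4.25% of all) and 5 without control number 3 (against 5.8%). It was 3 without paced number 1 (against 5.35%) and 5 without paced number 3 (against 4.32%). Besides ROBO2, EPHA2 was higher in paced values (log2 0.28, SE 0.11), as were FLRT3 (0.26, SE 0.09), SEMA6C (0.24, SE 0.10) and EFNB1 (0.23, SE 0.09). CNTN4 (-0.40, SE 0.16), CNTN1 (-0.39, SE 0.16) and FLRT2 (-0.26, SE 0.10) were lower. The FLRT3 value averages the opposite directions of the free wall and the septum given above. The CNTN1 value averages 0.08 in the free wall and -0.87 in the septum. SEMA6C, a membrane-bound semaphorin, averaged 3.72 ± 0.12 in control and 3.97 ± 0.09 in paced values. The smallest adjusted p of these after ROBO2 was 0.867. Without paced number 2 CNTN4 differed by -0.22, and without paced number 1 CNTN1 differed by -0.26. Of the 54 differences 37 were above 0 (68.5%, against 48.9%), with a median of 0.06 against -0.002 for all probe sets. The count was 32 (59.3%, against 48.6%) without control number 2 or without paced number 2. Without paced number 1 it was 38 (70.4%, against 51.4%).

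The regions were then compared within each treatment. No guidance gene passed in either treatment. In control pigs the largest difference was that of FLRT3, which was lower in the septum (log2 -0.74, SE 0.14, 1.67-fold, limma adjusted p = 0.997) with no overlap between the regions. That comparison rests on the same control septum arrays as the septum pacing comparison. The EPHA1 difference given next rests on the same control free wall arrays as its free wall pacing difference. EPHA1 was higher in the septum of control pigs (log2 0.42, SE 0.19, adjusted p = 0.997), where only the lowest septum array reached the highest free wall array. In control pigs 0 of 54 passed (0% of all), 2 had an unadjusted p under 0.05 (3.7%, against 3.67%), or 7 with only the control arrays in the fit (against 7.13% of all), and 7 had regions that did not overlap (13%, against 13.1%). Leaving out control free wall array 1 gave 5 genes at an unadjusted p under 0.05 (against 4.27% of all). Leaving out paced free wall array 2 also gave 5 (against 5.84%). Without paced septum array 3 there were 4 (against 3.92%). Without array 1 of the paced free wall or array 2 of the paced septum there was 1 (against 3.7% and 3.73%). In control pigs 34 of 54 differences were above 0 (63%, against 52.3%), but without control septum array 3 the count was 25 (46.3%, against 51.2%), and the median turned from 0.05 to -0.01.

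In paced pigs EFNB1 was higher in the septum with no overlap (log2 0.39, SE 0.12, limma adjusted p = 0.542). This EFNB1 difference and that of CNTN1 below rest on the same paced septum arrays as their septum pacing differences. SEMA3G read 4.29, 4.39 and 4.79 in paced free wall and 5.10, 5.02 and 4.78 in paced septum arrays, which overlapped by the smallest step of the scale (log2 0.48, SE 0.14, adjusted p = 0.561). In control pigs SEMA3G read 4.64, 4.85 and 4.75 in the free wall and 4.72, 4.80 and 4.88 in the septum, which overlapped (log2 0.05, SE 0.14). CNTN1 was lower in the septum of paced pigs (log2 -0.74, SE 0.26, adjusted p = 0.619), with paced septum array 3 inside the range of the free wall, and the mean of its probe sets gave -0.435. In all 0 of 54 passed in paced pigs (0% of all), 3 had an unadjusted p under 0.05 (5.56%, against 6.73%) and 4 did not overlap (7.41%, against 9.91%). The number at that p was 5 if paced free wall array 1 was left out (against 6.47% of all) and 6 if array 2 was (against 10.3%). It was 5 with only the paced arrays in the fit (against 4.34%). All 9 vascular endothelial markers and 9 of 10 macrophage markers tested were above 0 for septum minus free wall in paced pigs, and 5 of 9 and 2 of 10 in control pigs. The vascular markers include ROBO4, one of the 54 genes, and KDR and FLT1 of the signalling list described below. The part of the markers in the values of EFNB1, SEMA3G and the other genes was not tested. Of the 54 differences 30 were above 0 (55.6%, against 51.4%).

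**Figure D4:**
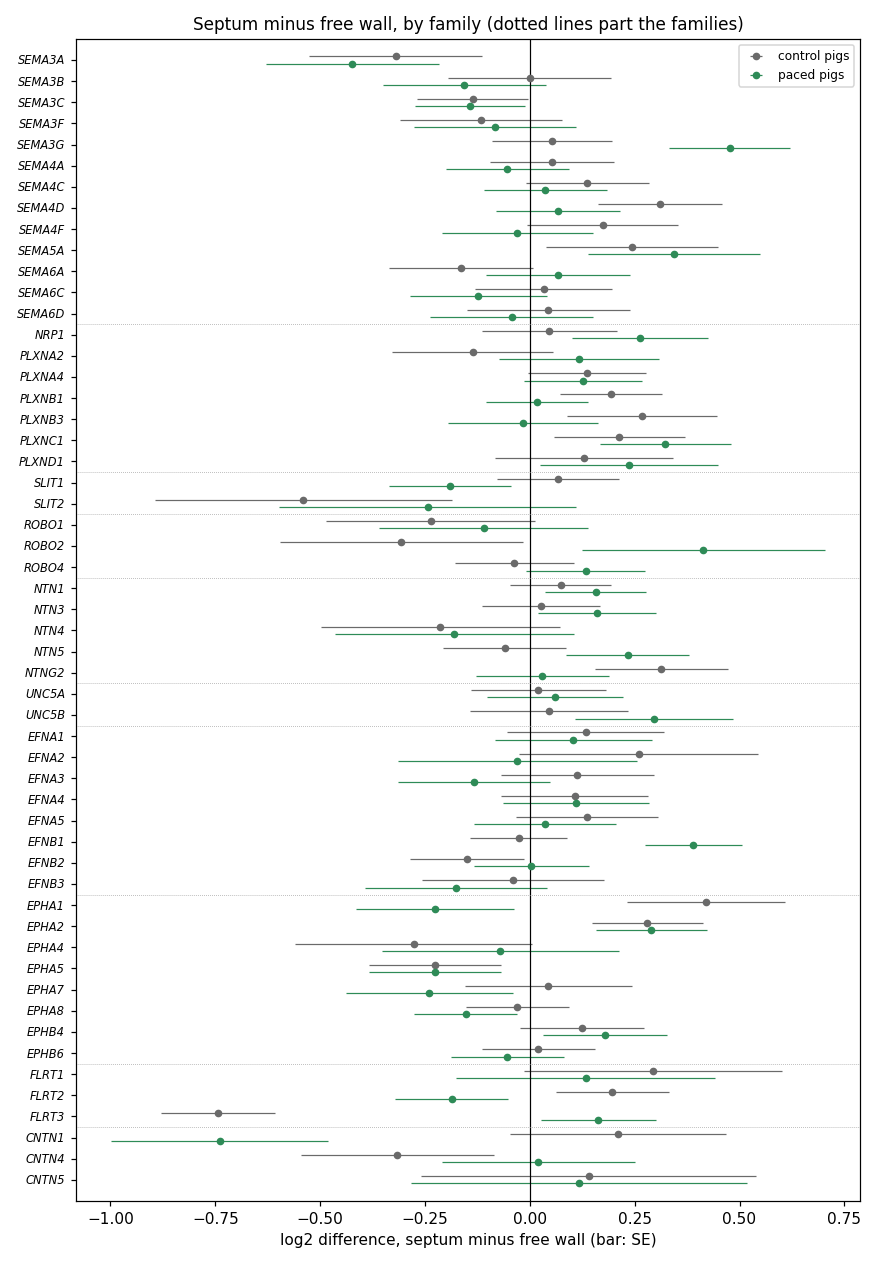
Log2 difference, septum minus free wall, for each of the 54 genes by family, in control and in paced pigs; bars are the standard error of the limma fit (3 arrays per group). FLRT3 in control pigs (-0.74) and CNTN1 in paced pigs (-0.74) lie farthest to the left, and SEMA3G in paced pigs (0.48) farthest to the right.

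Averaged over the treatments, 0 of 54 genes differed between the regions at an adjusted p under 0.05 (0.00968% of all probe sets). At an unadjusted limma p under 0.05 there were 6 (11.1%, against 7.83%), or 3 without control septum array 3 (against 6.31%). Without paced free wall array 2 there were 8 (against 14.3% of all). EPHA2 was higher in the septum (log2 0.28, SE 0.09, adjusted p = 0.488), by 0.28 in control and 0.29 in paced pigs. PLXNC1, the receptor of SEMA7A, was higher by 0.27 (SE 0.11), SEMA3G by 0.26 (SE 0.10) and EFNB1 by 0.18 (SE 0.08). EFNB1 differed by -0.03 (SE 0.12) in control and 0.39 in paced pigs, so its average rests on the paced pigs. PLXNC1 read 4.42, 4.34 and 4.41 in paced free wall and 4.59, 4.77 and 4.78 in paced septum arrays, which did not overlap, and 4.75, 4.35 and 4.25 against 4.93, 4.63 and 4.43 in control arrays, which did. SEMA3A was lower in the septum by a log2 difference of -0.37 (SE 0.15) and FLRT3 by -0.29 (SE 0.10). Without paced free wall array 2 the SEMA3A difference was -0.25. The FLRT3 difference was -0.74 in control pigs. In paced pigs FLRT3 averaged 3.63 in the free wall and 3.79 in the septum, so its value averages opposite directions. Of the 54 differences 30 were above 0 (55.6%, against 53.3%), but 26 (48.1%, against 51.9%) without control septum array 3, and the median turned from 0.05 to -0.002.

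The signalling genes around these families were followed through a list of 97 co-receptors and effectors, such as DCC partners and the proteins that turn guidance signals into changes of the cytoskeleton. Of these, 68 were on the array and 63 were tested, and 0 of 63 passed in any of the 7 comparisons. With pacing, 39 of 63 were above 0 in the free wall (61.9%, against 49.9% of all probe sets) and 34 in the septum (54%, against 49.1%). In each region 5 had an unadjusted limma p under 0.05 (7.94%, against 4.56% and 4.66%). RGMA, a repulsive ligand of neogenin, differed by 0.38 (SE 0.13) in the free wall and by 0.31 (SE 0.09) over the averaged regions. ADAM10, the protease that sheds ephrins, differed by 0.36 (SE 0.14) in the free wall, and FGFR1, a growth factor receptor that FLRT proteins bind, by 0.34 (SE 0.11) in the septum. SRGAP2, of a family that binds ROBO receptors, differed by 0.28 (SE 0.12) and DPYSL3, a mediator of semaphorin signals, by 0.35 (SE 0.15) in the septum. ADGRL2, a latrophilin, differed by 0.28 (SE 0.12) and FARP2 by -0.33 (SE 0.14) in the free wall, and RRAS by 0.38 (SE 0.15) in the septum. PAK1, a kinase of the cytoskeleton, differed by 0.70 in each region (SE 0.63) and over the averaged regions (SE 0.30), with overlapping groups. LMO4 was lower in both regions (log2 -0.26, SE 0.11, and -0.31, SE 0.11). The smallest adjusted p of the list in the pacing comparisons was 0.867.

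Between the regions of paced pigs, 7 of 63 genes of that list had an unadjusted limma p under 0.05 (11.1%, against 6.73% of all probe sets). FGFR1 (log2 0.37, SE 0.11), MICAL2 (0.42, SE 0.15), FARP2 (0.41, SE 0.14), DPYSL3 (0.35, SE 0.15) and ERBB2 (0.30, SE 0.12) were higher in the septum. ROCK2, a kinase that contracts the growth cone (-0.38, SE 0.12), and ADAM10 (-0.35, SE 0.14) were lower. In control pigs 0 of 63 had an unadjusted p under 0.05 (against 3.67% of all probe sets), and the difference between the treatments in this count was not tested.

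The 9 dim genes were CNTN3, CNTN6, EPHA6, EPHB2, NTNG1, ROBO3, SEMA3D, SEMA3E and UNC5D, whose means over the 12 arrays lay under 2.998. They were looked at only in a fit with no filter, where none passed. SEMA3D, a class 3 semaphorin, read 2.57, 2.55 and 3.02 in control free wall, 3.08, 2.33 and 3.44 in paced free wall, 2.64, 2.49 and 2.43 in control septum and 2.99, 3.19 and 2.77 in paced septum arrays. Its septum groups did not overlap, and over the averaged regions it differed by 0.35 (SE 0.12, limma adjusted p = 0.907). EPHB2, named after its values were seen, read 2.81, 2.53 and 2.95 in control septum and 2.39, 2.45 and 2.30 in paced septum arrays (log2 -0.38, SE 0.14, adjusted p = 0.997). SLIT3, NRP2, EPHA3, EPHB1, UNC5C and CNTN2 were not analysed here.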

How the data were processed

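Per the labels, biotin-labelled total RNA (Trizol) was hybridised to Affymetrix arrays. The authors deposited log2 signals from RMA (Affymetrix Expression Console 1.4, per the submitters' processing notes), a method with background correction, quantile normalisation and summary of probes to probe sets. The genome build is not given in the sources used here, and probe sets were named from a platform annotation that can be old. Of 27558 probe sets, 13323 had 1 symbol, 357 several and 13878 none.

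The lowest 25% by mean (under 2.998) were left out, and 20669 probe sets were tested. Group means were fitted over all 12 arrays with limma 3.58.1 in R 4.3.3, with Benjamini-Hochberg adjustment over all probe sets tested, two-sided, called at an adjusted p under 0.05. Comparisons over averaged regions used the 6 means of same-numbered arrays (4 residual degrees of freedom, against 8). The number of arrays limits the precision. The code was tested on simulated data.

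The genes and lists were chosen with earlier results of these data known. Named genes were those called, then up to 10 in each direction by fold at an unadjusted p under 0.05 (5 for the signalling list), and a set of family members described by level. Deviations from the group means correlated between same-numbered arrays of the regions at 0.318, 0.252 and 0.245 in control pigs, and at 0.0892, -0.173 and -0.181 in paced pigs, and the labels do not tie numbers to animals. Alternatives were other filters, array weights, trended robust variances, centring, only the groups compared, the number as a block, the mean of a gene's probe sets, and each array left out.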

Additional observations from a re-analysis of the deposited data

How the results depend on the processing

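No guidance gene and no gene of the signalling list passed under any alternative. The 32 named differences kept their direction and stayed short of the threshold in all 587 recomputations. In many of these the log2 difference could not change, as with other filters or with the block. The same held where the array left out belonged to a group outside the comparison. The counts of all probe sets called were small and moved. For pacing in the free wall (1) it was 2 with array weights, 0 with only the groups compared and 0 to 1 with an array left out. For pacing in the septum (2) it was 1 with only the groups compared and 1 to 4 with an array left out; for averaged regions (1) it was 0 to 1 with a number left out. For regions in paced pigs (0) it was 0 to 7 with an array left out. For regions averaged over treatments (2) it was 1 with the lowest 50% left out, 4 with array weights, 4 with trended robust variances and 0 to 3 with an array left out. With both control arrays numbered 1 left out together, a choice made after seeing the data, it was 0 for the free wall, 4 for the septum and 0 for regions averaged over treatments. The cause was not tested.

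For pacing in each region and over averaged regions the block was the number alone, which joined control and paced arrays of different pigs. For the other comparisons it was treatment and number together. With the block, the count of probe sets called was 0 for the free wall, 1 for the septum, 1 for regions in paced pigs and 1 for regions averaged over treatments. The block changed no call of a guidance gene, control regions included, where the deviations of same-numbered arrays correlated. The labels do not tie those arrays to 1 pig. Guidance genes at an unadjusted limma p under 0.05 numbered 4 instead of 8 with the block for pacing over averaged regions (4.65% of all probe sets), 2 instead of 4 for the difference of effects (3.09%) and 8 instead of 3 for regions in paced pigs (7.07%). With array weights they numbered 8 instead of 5 for pacing in the septum (8.3% of all), 4 instead of 2 for regions in control pigs (8.15%) and 5 instead of 3 for regions in paced pigs (9.45%). With trended robust variances they numbered 1 instead of 2 for regions in control pigs (3.48%).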
